A study of Mus musculus with 4 samples.

Results

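The serine and folate one-carbon enzymes described here are 9 genes chosen by name: Phgdh, Psat1, Psph, Shmt1, Shmt2, Mthfd1, Mthfd1l, Mthfd2 and Tyms. All 9 were found by Ensembl gene ID among the 49315 genes of the count table, and all 9 passed the filter on low counts. Poly(A) RNA was sequenced in 4 libraries of BMDMs (bone marrow-derived macrophages of the mouse), which are grown out of marrow with L-cell supernatant as a source of growth factor. All 4 came from Lyz2Cre+ marrow, in which Cre recombinase is driven from the myeloid gene Lyz2; the labels name no floxed allele, and give neither age nor animal. Polarization began on day 7 and lasted 24 hours, in medium without serum. For the 2 M1 libraries this was with 100 ng/ml of LPS together with 50 ng/ml of interferon gamma, and for the 2 M2 libraries with IL-4 plus IL-13, each at 10 ng/ml. The study also used erlotinib, an EGF receptor kinase inhibitor, and the labels do not say whether any of these libraries received it. Unpolarized cells were not analysed here, so "higher in M2" and "lower in M1" describe the same difference.

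Serine is made from a glycolytic intermediate by PHGDH, PSAT1 and PSPH acting in turn. Serine hydroxymethyltransferases then pass a carbon unit from serine to tetrahydrofolate, and the folate enzymes interconvert that unit and deliver it to purine, thymidylate and methionine synthesis. The pathway runs in parallel in the cytosol (SHMT1, MTHFD1) and in mitochondria (SHMT2, MTHFD2, MTHFD1L), which exchange serine and formate. In macrophages, serine and one-carbon metabolism is known for supplying glutathione and methyl donors during inflammatory activation.

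Upstream sequences of 3 members are shown, because Phgdh and Psat1 encode consecutive enzymes and differed in opposite directions, and because the Tyms promoter held the single match to the motifs searched. Each is the 250 bases before the RefSeq transcription start on GRCm38.p6, minus strand, written 5′ to 3′, with a motif match in capitals. They lie at chr3:98339970-98340219 for Phgdh, chr19:15925060-15925309 for Psat1 and chr5:30073626-30073875 for Tyms.
Phgdh: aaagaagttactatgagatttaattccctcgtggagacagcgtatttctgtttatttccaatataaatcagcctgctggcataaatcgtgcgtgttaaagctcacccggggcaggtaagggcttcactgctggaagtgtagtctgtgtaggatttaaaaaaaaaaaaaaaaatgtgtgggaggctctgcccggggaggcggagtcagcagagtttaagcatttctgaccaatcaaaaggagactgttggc
Psat1: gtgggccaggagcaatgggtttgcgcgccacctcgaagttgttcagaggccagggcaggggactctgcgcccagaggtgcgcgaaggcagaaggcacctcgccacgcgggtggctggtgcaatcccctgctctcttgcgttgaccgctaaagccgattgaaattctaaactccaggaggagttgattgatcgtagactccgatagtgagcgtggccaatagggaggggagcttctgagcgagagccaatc
Tyms: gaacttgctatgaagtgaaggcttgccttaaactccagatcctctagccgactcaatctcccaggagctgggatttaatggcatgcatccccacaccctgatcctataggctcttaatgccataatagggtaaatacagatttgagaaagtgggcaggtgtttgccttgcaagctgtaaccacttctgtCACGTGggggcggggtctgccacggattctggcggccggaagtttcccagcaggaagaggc
All 9 members matched the RefSeq promoter table, with 10 promoters, since Psat1 had 2. Windows of 300 bases, from 250 before to 50 after the start, were searched on both strands. TGATGCAA, a site for ATF4 with C/EBP factors, and TGATGNAA, a looser form that includes it, were in 0 of the 10. They occurred in 0.895% and 3.97% of the 32851 promoters in the table. The E2F sites TTTCGCGC and TTTGGCGC were also in 0 of the 10, against 0.323% and 0.514% of all promoters. The E-box CACGTG, a site for MYC with MAX, was in 1 of the 10, that of Tyms, beginning 61 bases upstream of the start, and in 7.15% of all promoters. GC content was 44.0% upstream of Phgdh and 52.0% upstream of Tyms. For Psat1 it was 59.6% upstream of the start shown, the first listed of its 2, and 65.6% upstream of the second. A match describes the letters in these windows and is not evidence of binding.

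Library totals ran from 26806370 to 39506242 gene counts, and 14656 genes were tested. Nos2, the inducible nitric oxide synthase of M1 cells, had 8035 and 7258 CPM in M1 and 10.6 and 9.66 in M2 (CPM, the count scaled to a common library size with TMM factors), and Arg1, the arginase of M2 cells, had 0.789 and 0.529 CPM in M1 and 10.1 and 11.6 in M2. Of 9 macrophage markers, 7 were higher in M1 and 2 in M2. The 9 summed to 8678 to 8712 CPM in M1 and 4655 to 4769 in M2. Among the 7, Cd14 had the largest gap, at a mean of 3138 CPM in M1 and 35.3 in M2. The 2 higher in M2 were Csf1r, at a mean of 264 CPM in M1 and 1640 in M2, and Cd68, at 119 and 1243 CPM. Adgre1, a macrophage surface receptor, had 3055 and 3123 CPM in M1 and 1365 and 1292 in M2, and Lyz2, the gene that drives Cre, averaged 26.3 CPM in M1 and 6.70 in M2. Of 7 fibroblast and stromal markers, 5 were higher in M2 and 2 in M1, and they summed to 116 to 124 CPM in M1 and 1148 to 1172 in M2. Most of this was Col1a1, at a mean of 39.5 CPM in M1 and 554 in M2, and Col1a2, at 52.9 and 478 CPM; 1 of the 7 rather than 2 was higher in M1 under total-count scaling. The 6 dendritic cell markers summed to 456 to 478 CPM in M1, mostly Ccr7 (mean 433 CPM), and to 3.71 to 4.53 in M2. Of the 5 tested, 4 were higher in M1 and 1 in M2. The 1 was Zbtb46, at a mean of 0.897 CPM in M1 and 1.81 in M2. The remaining lists were low in both groups. The 9 T and NK cell markers summed to 1.02 to 1.20 CPM in M1 and 3.80 to 3.86 in M2, and the 6 B cell markers to 9.78 to 10.0 and 15.5 to 17.0. The 8 neutrophil markers summed to 9.27 to 10.3 CPM in M1 and 9.51 to 12.7 in M2, the 6 mast cell and basophil markers, with Ms4a2 at 0, to 7.08 to 7.69 and 1.21 to 1.43, and the 6 erythroid markers to 2.64 to 2.81 and 2.81 to 3.52. The part of these other cells in the results was not tested, and in bulk RNA fewer cells of a type and less RNA per cell cannot be told apart.

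The comparison asks how transcripts of these enzymes differ between the polarizations. The set divided: Phgdh, Psph, Shmt2 and Mthfd1 were higher in M2, and Psat1, Shmt1, Mthfd1l, Mthfd2 and Tyms were higher in M1. Serine synthesis held both the largest difference toward M2 (Phgdh, 17.1-fold) and the largest toward M1 (Psat1, 7.78-fold) of the 9. The test was edgeR's quasi-likelihood test with Benjamini-Hochberg adjustment over all tested genes, and a gene is called at an adjusted p under 0.05. By that rule 77.2% of all tested genes were called, 39.7% higher in M2 and 37.5% higher in M1, so the call of all 9 is read against a background in which most genes differ. The M1 and M2 libraries did not overlap for any of the 9, against 88.5% of tested genes. In size, 8 of the 9 were called with a difference of at least 1 log2 unit, against 40.7% of tested genes. Of these 8, 4 were higher in M2, against 22.5% of tested genes, and 4 in M1, against 18.2%. The median absolute difference was 1.51 log2 units for the 9 and 0.76 for all tested genes. The members were chosen with earlier results of these data known, so these comparisons only describe the 9 and test nothing. The labels do not tie the libraries of a group to different animals or cultures, and the p-values then reflect the spread between these 4 libraries alone, which may be technical.

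**Figure D1:**
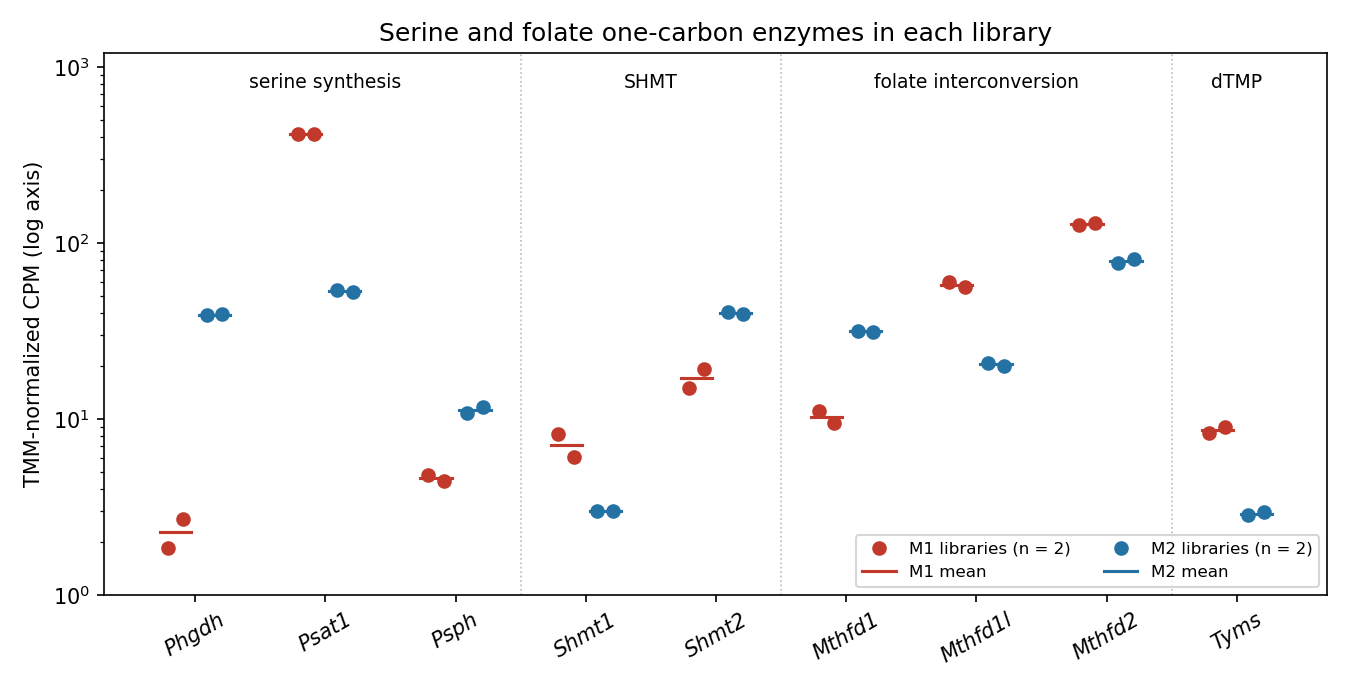
CPM on the TMM scale of the 9 enzymes in each library (log axis) for M1 and M2; points are the 2 libraries of each group and lines are group means. Psat1 is the highest of the 9 in M1 at 416 CPM or more, Phgdh is the lowest there, and no gene has overlapping groups.

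The enzymes of serine synthesis differed in opposite directions. Phgdh encodes the dehydrogenase that opens the pathway. It had 54 and 67 counts in the M1 libraries and 1229 and 1809 in the M2 libraries, or 1.85 and 2.73 CPM in M1 and 39.2 and 39.3 in M2. Its M1 libraries were low and unequal and its M2 libraries nearly identical, a 17.1-fold difference (log2 fold change, M2 minus M1, 4.12 ± 0.12 SE, edgeR adjusted p = 1.45e-13). Psat1 encodes the aminotransferase that acts next. It had 12135 and 10230 counts in the M1 libraries and 1704 and 2421 in the M2 libraries, or 416 and 416 CPM in M1 and 54.4 and 52.6 in M2. Libraries of a group lay close together, and Psat1 was 7.78-fold higher in M1 (log2 fold change -2.96 ± 0.07 SE, edgeR adjusted p = 3.85e-15). Psph, the phosphatase that completes the pathway, was low in both groups, with 4.80 and 4.47 CPM in M1 and 10.8 and 11.7 in M2. It was 2.43-fold higher in M2 (log2 fold change 1.28 ± 0.12 SE, edgeR adjusted p = 1.01e-07). The first and last enzymes of the chain were thus higher in M2 and the middle enzyme in M1.

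The balance of Phgdh and Psat1 within a library does not depend on scaling between libraries. The log2 ratio of Phgdh to Psat1 counts was -7.80 and -7.24 in the M1 libraries and -0.47 and -0.42 in the M2 libraries. The mean ratio was 135-fold higher in M2; this pair was chosen after its values were seen. In M2 the counts of both genes were of the same order, whereas in M1 those of Psat1 were far above those of Phgdh. Reads of Phgdh can be shared with copies: 17 annotated genes or pseudogenes match it at 90.6% to 98.7% identity over at least 500 bases. The 12 of them in the count table held 0 and 2 counts in the M1 libraries and 12 and 9 in the M2 libraries. How reads that fit several places were counted is not given in the sources used here, so the level of Phgdh is uncertain. Psph shares 452 of its 4329 exonic bases with Cct6a on the opposite strand, and the library kit does not mark strand. Cct6a had 3682 to 7112 counts in a library against 110 to 541 for Psph, so the value of Psph is uncertain too.

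The serine hydroxymethyltransferases, which split serine into glycine and a folate-bound carbon unit, also divided. Shmt2, the mitochondrial enzyme, had 15.1 and 19.3 CPM in M1 and 40.8 and 39.4 in M2. Both M2 libraries were above both M1 libraries, by 2.33-fold on average (log2 fold change 1.23 ± 0.10 SE, edgeR adjusted p = 9.1e-08). Shmt1, the cytosolic enzyme, had 8.24 and 6.10 CPM in M1 and 3.001 and 2.996 in M2. It was 2.39-fold higher in M1 (log2 fold change -1.27 ± 0.16 SE, edgeR adjusted p = 3.9e-06). The M1 libraries were less alike than the M2 libraries for both genes: replicate 2 minus replicate 1 was 0.35 log2 units for Shmt2 and -0.40 for Shmt1 in M1, and -0.05 and 0.00 in M2. The M1 pair was also less alike over all genes. The chi-square of replicate counts, per degree of freedom, was 9.20 in M1 and 1.93 in M2. Shmt1 shares 184 of its 3883 exonic bases with Smcr8 on the opposite strand. Smcr8 had 5745 and 4371 counts in the M1 libraries and 4224 and 5654 in the M2 libraries. Shmt1 had 240 and 150 in M1 and 94 and 138 in M2, so its value is uncertain in the same way as that of Psph. How much of the Shmt1 difference came from reads of Smcr8 was not tested.

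**Figure D2:**
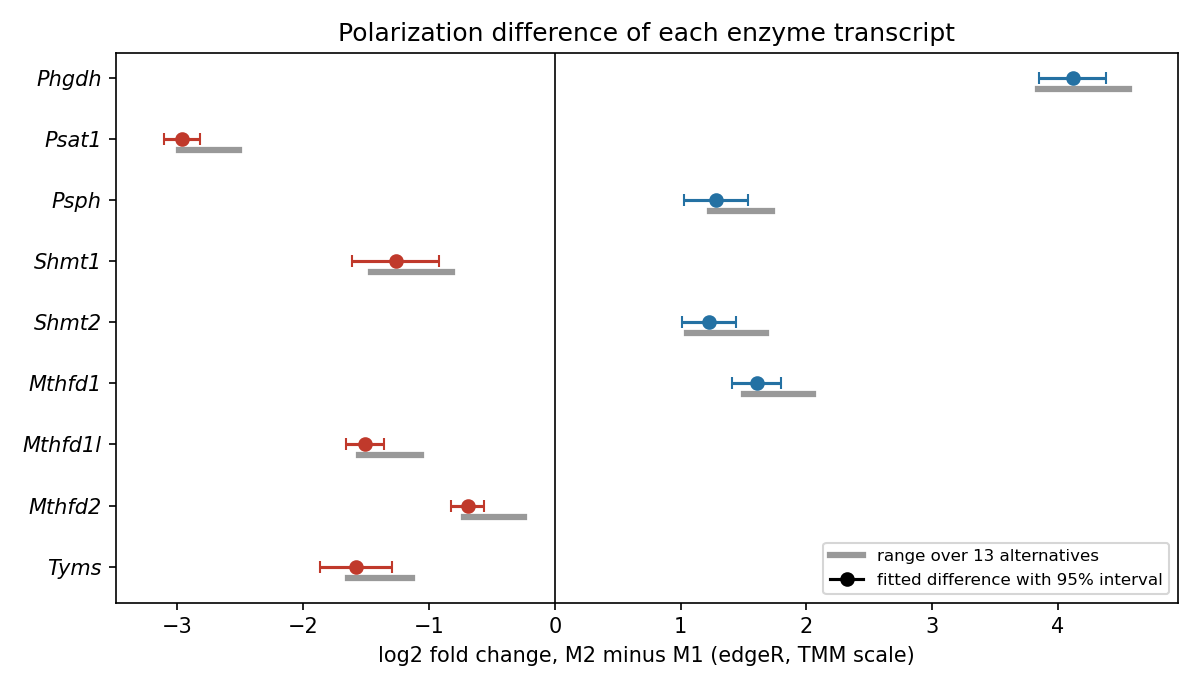
Log2 fold change of each enzyme (M2 minus M1) with its 95% interval from edgeR; grey bars give the range over 13 alternative fits. Phgdh lies at 4.12 and Psat1 at -2.96, and no interval or grey bar reaches 0.

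Of the 3 MTHFD members of the set, which interconvert folate-bound carbon units, the mitochondrial Mthfd2 and Mthfd1l were higher in M1 and the cytosolic Mthfd1 in M2. Mthfd2, the mitochondrial dehydrogenase and cyclohydrolase, had 126 and 129.6 CPM in M1 and 76.9 and 81.3 in M2. Its difference was the smallest of the 9, 1.62-fold higher in M1 (log2 fold change -0.69 ± 0.06 SE, edgeR adjusted p = 5.39e-08), and total-count scaling made it -0.24 (adjusted p = 0.00163). Mthfd1l, the mitochondrial enzyme that releases formate, had 59.8 and 56.5 CPM in M1 and 20.9 and 19.9 in M2. It was 2.84-fold higher in M1 (log2 fold change -1.51 ± 0.07 SE, edgeR adjusted p = 2.41e-11). Mthfd1, the cytosolic enzyme that combines these activities in a single protein, had 11.1 and 9.56 CPM in M1 and 31.8 and 31.2 in M2. It was 3.05-fold higher in M2 (log2 fold change 1.60 ± 0.09 SE, edgeR adjusted p = 2.34e-10).

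Ratios of mitochondrial to cytosolic transcripts within a library differed in both directions. The log2 ratio of Shmt2 to Shmt1 counts was 0.87 and 1.66 in the M1 libraries and 3.76 and 3.71 in the M2 libraries, 5.54-fold higher in M2. That of Mthfd2 to Mthfd1 was 3.51 and 3.76 in the M1 libraries and 1.27 and 1.38 in the M2 libraries, 4.94-fold higher in M1. That of Mthfd1l to Mthfd1 was 2.43 and 2.56 in the M1 libraries and -0.60 and -0.65 in the M2 libraries, 8.69-fold higher in M1. Mthfd1l thus had more counts than Mthfd1 in both M1 libraries and fewer in both M2 libraries. The ratio of Shmt2 to Shmt1 shares the uncertainty of the Shmt1 value given above. The groups did not overlap for any ratio; with 2 libraries each, a two-sided exact permutation test cannot go below p = 0.333, the value each gave.

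**Figure D3:**
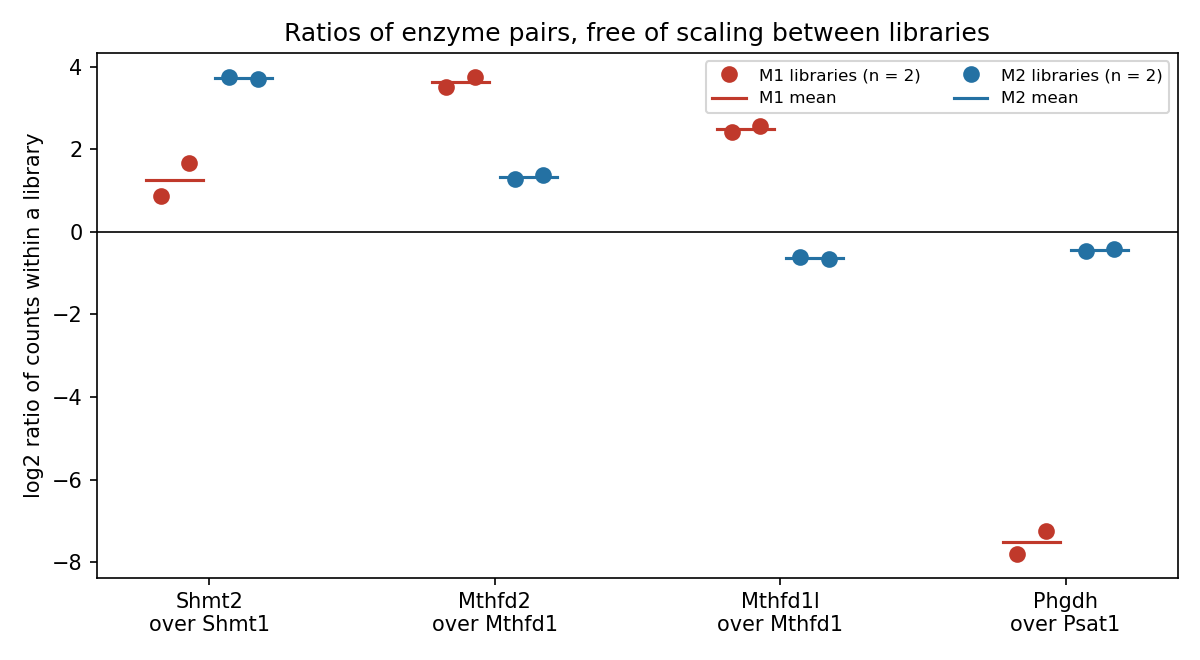
Log2 ratio of the counts of 2 enzymes within each library (0.5 added to each count) for M1 and M2; 0 marks equal counts. Shmt2 over Shmt1 and Phgdh over Psat1 are higher in M2, and both MTHFD ratios are higher in M1.

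Tyms encodes thymidylate synthase, which methylates dUMP with a folate-bound carbon unit. It had 244 and 223 counts in the M1 libraries and 89 and 136 in the M2 libraries, or 8.37 and 9.07 CPM in M1 and 2.84 and 2.95 in M2. Both M1 libraries were above both M2 libraries, by 3.01-fold on average (log2 fold change -1.58 ± 0.13 SE, edgeR adjusted p = 3.08e-08). Its processed pseudogene Tyms-ps matches it at 93.9% identity and was not analysed here.

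Levels of different genes were compared per length, as RPKM (CPM on the TMM scale divided by the kilobases of annotated exon). In M1, Psat1 was highest at 97.9 ± 0.0657 RPKM (SD, n = 2), followed by Mthfd2 at 36.7 ± 0.688, Mthfd1l at 13.1 ± 0.526 and Shmt2 at 5.53 ± 0.967. Mthfd1, Shmt1, Tyms, Psph and Phgdh followed in that order, from 2.32 down to 0.921 RPKM. In M2, Mthfd2 was highest at 22.7 ± 0.901 RPKM, followed by Phgdh at 15.8 ± 0.00989, Shmt2 at 12.9 ± 0.326 and Psat1 at 12.6 ± 0.307. Mthfd1, Mthfd1l, Psph, Shmt1 and Tyms followed, from 7.09 down to 0.476 RPKM. Phgdh had the lowest mean in M1 and the second highest in M2. Libraries of neighbours overlapped for Psph and Phgdh in M1 and for Shmt2 and Psat1 in M2, so these are not placed apart. Psat1 made up 61.1% and 60.7% in M1 and 16.1% and 15.5% in M2 of the summed RPKM of the 9, and Phgdh made up 0.465% and 0.680% in M1 and 19.9% and 19.8% in M2. The sum was 160.3 and 161 in M1 and 79.4 and 79.6 in M2, and without Psat1 it was 62.4 and 63.5 in M1 and 66.6 and 67.3 in M2. Exons that these cells do not use lower the RPKM of a gene, and their share was not measured for any member.

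All 9 are protein-coding genes in GENCODE M21 on GRCm38. Phgdh (ENSMUSG00000053398, chr3:98313170-98339990), Psat1 (ENSMUSG00000024640, chr19:15904678-15947337), Psph (ENSMUSG00000029446, chr5:129765558-129787449), Shmt1 (ENSMUSG00000020534, chr11:60788104-60811718), Shmt2 (ENSMUSG00000025403, chr10:127517123-127522444), Mthfd2 (ENSMUSG00000005667, chr6:83305691-83325908) and Tyms (ENSMUSG00000025747, chr5:30058202-30073617) are on the minus strand. Mthfd1 (ENSMUSG00000021048, chr12:76255298-76319803) and Mthfd1l (ENSMUSG00000040675, chr10:3973118-4167081) are on the plus strand. Psph and Tyms share chromosome 5, and Shmt2 and Mthfd1l share chromosome 10; each pair lies far apart and differed in opposite directions. Shmt2 shares 32 exonic bases with Ndufa4l2 on the opposite strand, and Ndufa4l2 had 6 to 30 counts in a library against 439 to 1815 for Shmt2. Mthfd1 shares 37 with Gm47525, a noncoding gene that was not analysed here.

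By number of genes, the other folate enzymes and carriers were mostly higher in M2. Of 17 listed, 16 were tested, 12 were higher in M2, 2 higher in M1 and 2 not called. The summed level of the list went the other way, at 573 to 671 CPM in M1 and 299 to 301 in M2. Genes of the list described below were all among those higher in M2. The median log2 fold change of the list was 0.75, against 0.04 for all tested genes. For this list and those below, the background is 39.7% of all tested genes higher in M2 and 37.5% higher in M1. Folr2, a folate receptor of macrophages, had 5.94 and 5.65 CPM in M1 and 45.8 and 49.9 in M2 (8.25-fold). Slc19a1, the reduced folate carrier, had 2.09 and 3.09 CPM in M1 and 12.6 and 12.7 in M2 (4.89-fold). Both carriers were thus clearly higher in M2. Folr1, another folate receptor, had 0 counts in M1 and 37 in M2; with the M1 group set to the floor of 3 counts, M2 was at least 8.56-fold higher (counting error only); the list median is the same with Folr1 at that bound. Aldh1l2, a mitochondrial enzyme that oxidizes formyl-folate, had 1.13 and 0.691 CPM in M1 and 7.21 and 6.43 in M2 (7.48-fold). Mthfd2l, the paralogue of Mthfd2, was 2.51-fold higher in M2 and Slc25a32, the mitochondrial folate carrier, 1.52-fold, the opposite direction to Mthfd2. Mtr, methionine synthase, was 1.45-fold higher in M2.

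**Figure D4:**
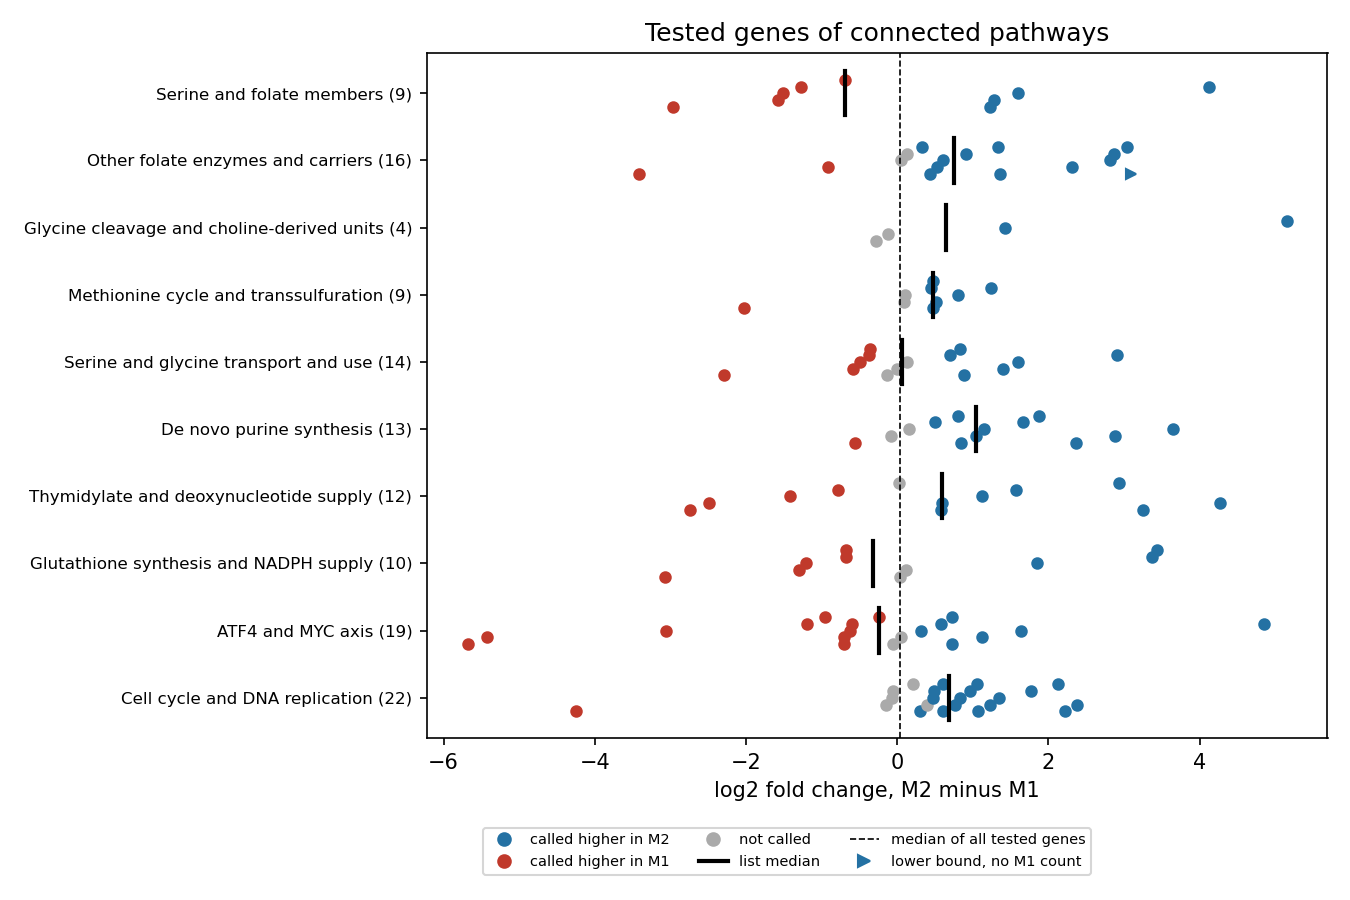
Log2 fold change (M2 minus M1) of each tested gene of the gene lists; colours mark genes called higher in M2 or M1, grey points were not called, and the triangle is the lower bound for Folr1. The 9 enzymes have a median of -0.69 and purine synthesis of 1.04, against 0.04 for all tested genes.

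Purine synthesis, which takes formyl groups from folate, had 13 genes tested, with 10 higher in M2, 1 higher in M1 and 2 not called (median 1.04). The formyl-using enzymes Gart and Atic were 3.17-fold and 3.67-fold higher in M2, in the direction of Mthfd1. Gart had 15.8 and 18.9 CPM in M1 and 55.3 and 54.6 in M2, and Atic had 26.7 and 29.8 CPM in M1 and 104 and 103 in M2. Prps2, which makes the activated sugar precursor, was 7.44-fold and Adssl1, an adenylosuccinate synthase, 12.6-fold higher in M2. Impdh1, on the guanine branch, was 1.47-fold higher in M1, a call lost under total-count scaling (edgeR adjusted p = 0.212). Without M1 replicate 2 the number higher in M1 was 2.

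Thymidylate and deoxynucleotide supply was mixed, with 7 of 12 higher in M2, 4 higher in M1 and 1 not called (median 0.59). Over all tested genes, 39.7% were higher in M2 and 37.5% higher in M1. Tk1, the thymidine salvage kinase, had 14.9 and 14.4 CPM in M1 and 5.11 and 5.80 in M2, a difference of 2.69-fold in the direction of Tyms. Dck, deoxycytidine kinase, was 5.62-fold and Samhd1, which degrades deoxynucleotides, 6.67-fold higher in M1. Dut, which makes the dUMP that thymidylate synthase uses, had 0.515 and 0.732 CPM in M1 and 11.4 and 12.4 in M2 (19.1-fold). Dctd, which also feeds dUMP, was 9.43-fold and Rrm2, a ribonucleotide reductase subunit, 7.71-fold higher in M2. Of 22 cell cycle and replication genes, 16 were higher in M2, 1 higher in M1 and 5 not called (median 0.69), the direction opposite to Tyms. Mki67, a proliferation marker, had 7.24 and 7.12 CPM in M1 and 9.45 and 10.6 in M2, and Ccna2 (5.21-fold) and E2f2 (4.63-fold) were also higher in M2. Ccne1, cyclin E1, was 19.2-fold higher in M1, and without M1 replicate 1 the number higher in M1 was 2.

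Serine and glycine carriers and users were divided, with 6 of 14 tested higher in M2, 5 higher in M1 and 3 not called (median 0.06). This is near the shares of all tested genes, 39.7% higher in M2 and 37.5% higher in M1, so the split does not mark the list. Slc1a5, a neutral amino acid exchanger, had 8.37 and 8.62 CPM in M1 and 63.4 and 63.5 in M2 (7.47-fold). Slc1a4, its relative, was 3.03-fold and Sfxn1, the mitochondrial serine carrier, 1.77-fold higher in M2, the direction of Shmt2. Slc38a2 and Slc38a1, sodium-coupled amino acid transporters, were 1.49-fold and 1.40-fold higher in M1. The others higher in M1 were Sptlc1 and Sptlc2, subunits of the enzyme that opens sphingolipid synthesis from serine (1.28-fold and 1.29-fold), and Sds, serine dehydratase, which was under 1 CPM in all 4 libraries. Under total-count scaling Slc38a2 and Slc38a1 were not called (edgeR adjusted p = 0.0635 and 0.610), and of the whole list 9 genes were higher in M2 and 1 was higher in M1. Of the glycine cleavage and choline-derived list, 4 of 7 genes were tested, 2 were higher in M2 and 2 were not called; 3 were higher in M2 and 1 in M1 without M1 replicate 1, and likewise without M1 replicate 2. Gcsh, the lipoyl carrier of glycine cleavage, was 2.66-fold higher in M2. Amt and Dld, of the same system, were the 2 not called. Gldc, also of that system, had 0 counts in both M1 libraries and 8 and 18 in the M2 libraries, and was not tested. Sardh, sarcosine dehydrogenase, had 8 and 1 counts in the M1 libraries and 163 and 313 in the M2 libraries, a log2 fold change of 5.15 that was 7.10 without M1 replicate 1 and 4.46 without M1 replicate 2.

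In the methionine cycle and transsulfuration list, 9 of 13 genes were tested, 6 were higher in M2, 1 higher in M1 and 2 not called (median 0.48). Mtap, which salvages methionine, was 2.37-fold, Ahcy, which clears S-adenosylhomocysteine, 1.75-fold and Mat2a, which makes S-adenosylmethionine, 1.39-fold higher in M2. Gnmt, glycine N-methyltransferase, was the gene higher in M1, at 0.686 and 0.935 CPM there and 0.160 and 0.217 in M2. The transsulfuration genes Cbs and Cth were not among those called. Cbs had 5 counts or fewer in each library and was not tested, and Cth had a log2 fold change of 0.09. Of 10 genes of glutathione synthesis and NADPH supply, 3 were higher in M2, 5 higher in M1 and 2 not called (median -0.32). Idh1 and Idh2, NADP-linked isocitrate dehydrogenases, were 10.4-fold and 10.8-fold higher in M2. Gsr, glutathione reductase, was 8.37-fold and G6pdx, which opens the pentose phosphate pathway, 2.46-fold higher in M1. The number higher in M2 was 5 under upper-quartile scaling and 5 under total-count scaling.

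ATF4 and MYC are transcription factors known to act on serine synthesis and mitochondrial folate genes. Of 19 genes on their list, 7 were higher in M2, 10 higher in M1 and 2 not called (median -0.24). The shares of all tested genes were 39.7% higher in M2 and 37.5% higher in M1. Under total-count scaling 10 of the list were higher in M2 and 7 in M1. Atf4 had 385 and 391 CPM in M1 and 238 and 238 in M2, 1.63-fold more in M1. That is the direction of 5 members and opposite to the other 4, and a link of Atf4 to the members was not tested. Of its known targets, Slc7a11, the cystine transporter, was 51.2-fold higher in M1, and Asns, asparagine synthetase, was 1.65-fold higher in M2. Atf5, a related factor, was 3.10-fold higher in M2. Myc had 1.85 and 1.42 CPM in M1 and 46.5 and 49.1 in M2 (29.2-fold, log2 fold change 4.85, edgeR adjusted p = 8.39e-15), and Mycl had 257 and 315 counts in the M1 libraries and 10 and 9 in the M2 libraries (42.0-fold higher in M1). Transcript levels do not give the amount or activity of these proteins.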

How the data were processed

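RNA from 2 M1 and 2 M2 libraries was selected with oligo(dT) and sequenced as paired reads from a kit that does not mark strand, per the labels' protocols. The submitters' processing notes name STAR 2.5.2b, Trimmomatic 0.36, Subread 1.5.2 with featureCounts, and DESeq and DESeq2, with the build GRCm38. What each tool was set to is not given in the sources used here. Per Ensembl gene, the authors deposited raw read counts, 1 column a library. The authors' table of comparisons was not used: the rule that chose the members warns that its gene symbols are shifted in part, which was not checked here, and it gives no gene IDs.

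Gene IDs were matched to GENCODE M21. Counts were filtered with filterByExpr (minimum count 10, minimum total 15), scaled with TMM and fitted over all genes with edgeR 4.0.16 (R 4.3.3; robust quasi-likelihood fit, two-sided F test), which was tested on simulated data. Each standard error was taken as the size of the log2 fold change over the root of its F statistic. TMM factors were 0.846 and 0.866 for M1 and 1.17 for both M2 libraries. Mitochondrially encoded genes took 1.24% to 1.67% of counts. Alternatives were DESeq2 1.42.0, limma-voom (limma 3.58.1), other scalings and filters, and each library left out.

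Members and lists were chosen with earlier results of these data known. Named genes are the 9 members, a fixed set and, for each list and direction, up to 2 called genes of the largest change with a mean of at least 1 CPM. Ccr7, Cct6a, Cd14, Cd68, Col1a1, Col1a2, Csf1r, Folr1, Gnmt, Lyz2, Ms4a2, Ndufa4l2, Sds, Smcr8, Sptlc1, Sptlc2 and Tyms-ps were named after their values were seen. Amt, Cbs, Cth, Dld, Gldc and Zbtb46 were also named after their values were seen. Some genes of the lists are counted but not reported by name here.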

Additional observations from a re-analysis of the deposited data

How the results depend on the processing

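All 9 members kept their direction and their call in each of the 13 alternative fits, with an adjusted p of at most 0.00163 (Mthfd2, total-count scaling). Total-count scaling moved the median log2 fold change of all tested genes by 0.45 toward M2 and upper-quartile scaling by 0.18, and the share of calls higher in M2 went from 51.4% to 71.9% and 60.8%. The number of genes called, 11312, ran from 8359 (at least 5 CPM in 2 libraries) to 11912 (total-count scaling). The within-library ratios kept their direction without a pseudocount and with each library left out. Among the other named genes, Slc38a2, Slc38a1 and Impdh1 lost their calls under total-count scaling, and Mthfd2l, Dctd and Ccna2 gave no value under the 5 CPM filter. List counts under other scalings or without a library were added after the data were seen. With a library left out, the lone sample of its group is assumed to vary like the other group. That assumption is doubtful here, since the M1 pair was less alike than the M2 pair. No paired analysis was possible because the labels give no replicate numbers. Low counts limit the precision for Phgdh in M1 and for Shmt1 and Tyms in M2.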
